A study of Mus musculus with 31 samples.

Results

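Adenylyl cyclases are the enzymes that make the second messenger cyclic AMP (cAMP) from ATP. Of the 20436 gene symbols counted in mouse cortex, the 7 cyclase genes Adcy1, Adcy2, Adcy3, Adcy5, Adcy6, Adcy8 and Adcy9 are described here, chosen by name, with Adcy1 among them as a known target of the RNA-binding protein FMRP. Each gene was measured in ribosome footprints (RPF, the mRNA fragments that ribosomes protect from nuclease) and in polyA-selected mRNA. Dissected cortices came from mice aged P29 to P34. WT mice were wild type, FXS mice lacked Fmr1 (the gene for FMRP), S6K1 mice lacked Rps6kb1 (the gene for ribosomal protein S6 kinase S6K1), and DKO mice lacked both genes. The strain, the alleles and the sex of the animals are not given in the sources used here. There were 4 mRNA libraries of each genotype, and 4 WT, 5 FXS, 3 S6K1 and 3 DKO footprint libraries. The labels do not say that libraries of a genotype came from separate animals, nor whether the mRNA and the footprints were taken from shared animals, so the p-values measure the spread between these libraries. As whole cortex was lysed, fewer cells of a type and less RNA per cell cannot be told apart.

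Membrane adenylyl cyclases are switched on by the stimulatory G protein that many neurotransmitter receptors engage, and the cAMP they make activates protein kinase A, Epac proteins and, through them, gene expression and synaptic plasticity. The isoforms differ in their other inputs: calcium with calmodulin stimulates Adcy1, Adcy8 and, more weakly, Adcy3, while calcium inhibits Adcy5 and Adcy6. Adcy2 belongs to a group that G-protein beta-gamma subunits stimulate, and Adcy9 is nearly insensitive to forskolin. FMRP binds many long neuronal mRNAs within their coding sequence and is best known as a repressor of their translation, and S6K1 phosphorylates ribosomal protein S6 and translation factors downstream of mTORC1.

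Total counts ran from 12.1 to 17.3 M per mRNA library and from 16.6 to 34.9 M per footprint library, and every one of the 7 genes passed the filter on low counts in both assays. The targeted genes followed the labels: Fmr1 footprints were lower than in WT by a log2 fold change of -3.88 ± 0.10 (SE) in FXS (edgeR adjusted p = 4e-12) and -3.69 ± 0.13 in DKO (adjusted p = 3.07e-10), and Rps6kb1 footprints by -1.63 ± 0.14 in S6K1 (adjusted p = 6.85e-05) and -1.44 ± 0.13 in DKO (adjusted p = 8.19e-05). The labels give batches, which were kept in the model. Each mRNA batch, 5 to 8, held every genotype once, while footprint batch 1 held no WT or FXS, batch 2 no DKO and batch 4 no S6K1 library. The mRNA libraries of batch 5 stood apart for these genes: their mean was 0.532 times that of the other batches for Adcy8, 0.569 times for Adcy3, 0.584 times for Adcy2 and 1.35 times for Adcy1, where 1 is no difference. The 4 markers of excitatory neurons used here were Slc17a7, Camk2a, Neurod6 and Tbr1, none of which was at 0 in any group. The 11 of 11 striatal markers and all markers used for hippocampus, thalamus and choroid plexus were detected as well. Detection therefore does not tell cortex from other regions.

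Adcy1 was the only member called in the main fit. Its footprints were called lower in DKO, and its translational efficiency (TE, footprints relative to mRNA) lower in FXS and in DKO, each against WT. The footprint call and the FXS call in TE lay close to the threshold and were lost under many alternatives, given below. No other cyclase gene passed the main test in mRNA, footprints or TE in any of the 6 contrasts. The alternative test DESeq2 also called Adcy3 TE in DKO (adjusted p = 0.0465) and Adcy9 mRNA in FXS (0.0473). Adcy1 was not tested against the other members. A gene was called at an adjusted p under 0.05 (edgeR quasi-likelihood test, Benjamini-Hochberg over all genes tested). The contrasts of FXS, S6K1 and DKO with WT share the WT libraries and are given side by side only.

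In mRNA, 0 of 7 members were called in any contrast. The share of all 14215 genes called was 0.155% in FXS against WT, 0.0211% in S6K1 against WT, 5.23% in DKO against WT, 0.0281% in DKO against FXS, 0.387% in DKO against S6K1 and 0.0% in the interaction, defined as the step from S6K1 to DKO minus the step from WT to FXS. At an unadjusted p under 0.05 the members numbered 3, 1, 3, 0, 2 and 1 in that order, beside 12.7%, 7.37%, 22.3%, 9.81%, 14.8% and 3.5% of all genes. DESeq2 called 2 members for FXS against WT, 1 member for DKO against S6K1, and limma voom called 0 in every mRNA contrast. The members' median log2 fold change in mRNA was 0.18 in FXS against WT, beside -0.00899 over all genes, and 0.12 in DKO against WT, beside -0.00327. In S6K1 against WT it was -0.054, beside 0.00355.

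In footprints, 1 of 7 members was called in DKO against WT, where 0.366% of 13953 genes were called, and 0 of 7 in the other contrasts. The shares called there were 0.165% in FXS against WT, 0.00717% in S6K1 against WT, 0.0143% in DKO against FXS, 0.00717% in DKO against S6K1 and 0.0% in the interaction. Unadjusted p-values under 0.05 numbered 1 in FXS, 1 in S6K1 and 3 in DKO against WT, 2 in DKO against FXS, 2 in DKO against S6K1 and 0 in the interaction. The shares of all genes at that threshold were 9.87%, 8.74%, 17.1%, 6.19%, 8.67% and 3.07% in the same order. DESeq2 called 1 member each in the S6K1 and DKO contrasts with WT, and limma voom called 0 in all 6 contrasts. All 7 fitted differences were below 0 in DKO against WT, with a median log2 fold change of -0.12 beside -0.0124 over all genes. All 7 were also below 0 in DKO against S6K1, with a median of -0.185 beside -0.00176. Not all lay clear of 0, as Adcy8 (-0.026 ± 0.10, SE) and Adcy9 (-0.022 ± 0.12) were within 1 SE of it there. With a library left out, Adcy8 kept its sign in 4 of 6 fits and Adcy9 in 3 of 6. In DKO against WT, Adcy5 (-0.026 ± 0.28), Adcy8 (-0.038 ± 0.099) and Adcy9 (-0.054 ± 0.12) were within 1 SE of 0. The share of all genes below 0 was not counted.

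In TE, 1 of 7 members was called in FXS against WT, where 0.0952% of 13654 genes were called, and 1 in DKO against WT, where 4.85% were. In the other contrasts 0 of 7 were called, beside shares of 0.0293% in S6K1 against WT, 0.0146% in DKO against FXS, 0.00732% in DKO against S6K1 and 0.0% in the interaction. Unadjusted p-values under 0.05 numbered 2 in FXS, 1 in S6K1 and 3 in DKO against WT, 0 in DKO against FXS, 4 in DKO against S6K1 and 0 in the interaction, where all genes gave 13.4%, 7.51%, 24.9%, 8.36%, 14.6% and 4.14%. DESeq2 called 1 member in FXS and 2 in DKO against WT and 0 in the other contrasts. Limma voom called 0 in FXS, 1 in DKO and 0 in the rest. The members' median log2 TE difference was -0.225 in FXS against WT (all genes -0.0116), 0.073 in S6K1 against WT (all genes -0.0234), and -0.30 in DKO against WT (all genes -0.0175).

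**Figure D1:**
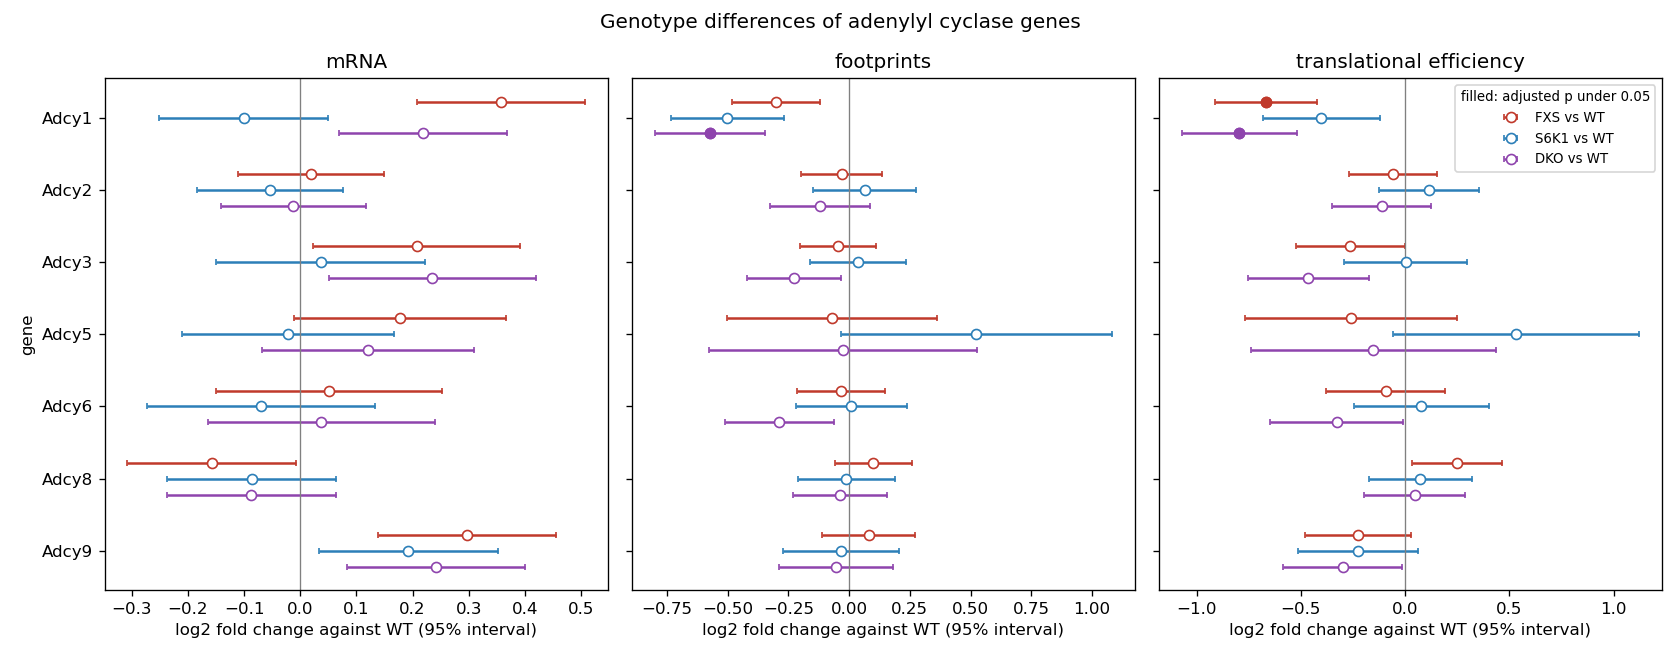
Log2 fold change against WT (x axis, points) of each cyclase gene (y axis) in mRNA, footprints and TE, for FXS, S6K1 and DKO. Bars are approximate 95% intervals made from the SE. Some miss the line of no difference although the unadjusted edgeR p was over 0.05. The filled points, at an adjusted p under 0.05, are all in the row of Adcy1: footprints in DKO (-0.57) and TE in FXS (-0.67) and DKO (-0.80).

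Adcy1 encodes a calcium- and calmodulin-stimulated cyclase of cortex and hippocampus that acts as a detector of neuronal calcium entry. The gene lies on the plus strand of chromosome 11, from 7063433 to 7178506 in GRCm38.p6. In mRNA the 2 genotypes without Fmr1 had the higher levels, but the differences did not pass the test. In batches 5, 6, 7 and 8, the mRNA level was 144, 73.0, 100.4 and 111 CPM, that is counts divided by the library total in M and scaled by TMM (edgeR's scaling between libraries), in WT. In FXS it was 155, 114, 124 and 145 CPM. In S6K1 it was 125, 78.0, 83.3 and 109 CPM, and in DKO 149.7, 90.8, 125 and 127 CPM. The genotypes overlapped over all libraries, yet within every batch both FXS and DKO lay above WT, FXS by a log2 difference of 0.11 to 0.65 and DKO by 0.052 to 0.32.

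The fitted mRNA difference of Adcy1 was 0.36 ± 0.076 (SE) in FXS against WT, with an edgeR adjusted p of 0.0548. Against WT it was 0.22 ± 0.077 in DKO (adjusted p = 0.0939) and -0.10 ± 0.077 in S6K1 (adjusted p = 0.824). DKO stood 0.32 ± 0.077 above S6K1, the matched comparison of losing Fmr1 without S6K1 (adjusted p = 0.0554), and -0.14 ± 0.076 from FXS (adjusted p = 0.566). FXS against WT was called in 5 of 15 alternatives, whose adjusted p ran from 0.00357 to 0.998. It was called by DESeq2 (adjusted p = 0.00357), with RLE factors (0.0448) and with no filter on low counts (0.0395). It was also called with the WT and FXS libraries alone (0.00953) and without batch 5 (0.0495). With any 1 of the 8 WT and FXS mRNA libraries left out it was not called (edgeR adjusted p from 0.0524 to 0.312). In the authors' deposited table the difference was 0.36 with an adjusted p of 0.00257.

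Adcy1 footprints ran the other way. The WT libraries held 91.7 CPM in batch 2, 78.6 in batch 3, and 54.5 and 60.6 in batch 4. FXS held 72.1 and 65.5 CPM in batch 2, 51.4 in batch 3, and 59.9 and 49.4 in batch 4. S6K1 held 59.0, 57.7 and 52.4 CPM in batches 1, 2 and 3, and DKO held 55.2, 46.6 and 43.8 CPM in batches 1, 3 and 4. DKO was thus lowest and WT highest on average, at 48.5 ± 5.93 (SD, n = 3) against 71.4 ± 17 CPM (SD, n = 4), with FXS at 59.6 ± 9.50 (n = 5) and S6K1 at 56.4 ± 3.53 (n = 3). The highest DKO library lay just above the lowest WT library, so these groups overlapped over all batches.

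Within each batch that held both genotypes, every mutant mean of Adcy1 footprints was below WT. The within-batch log2 differences were -0.42, -0.61 and -0.074 for FXS in batches 2, 3 and 4, -0.67 and -0.59 for S6K1 in batches 2 and 3, and -0.75 and -0.39 for DKO in batches 3 and 4. The fitted footprint difference was -0.57 ± 0.12 (SE) in DKO against WT, a fold of 0.672 (edgeR adjusted p = 0.0472). It was -0.50 ± 0.12 in S6K1 (adjusted p = 0.261) and -0.30 ± 0.093 in FXS (adjusted p = 0.268), which did not pass. The DKO call was close to the threshold. When any 1 of the 7 WT and DKO footprint libraries (replicates 1 to 4 of WT and 1 to 3 of DKO) was left out it was lost, with adjusted p from 0.0539 to 0.295. It was lost as well with limma voom (0.0543), RLE factors (0.0543), no batch term (0.206) and the WT and DKO libraries alone (0.167), and kept with DESeq2 (0.00224). DKO against FXS was -0.27 ± 0.11 (adjusted p = 0.762). The authors' deposited table gives -0.58 with an adjusted p of 0.00124 for Adcy1 footprints in DKO.

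**Figure D2:**
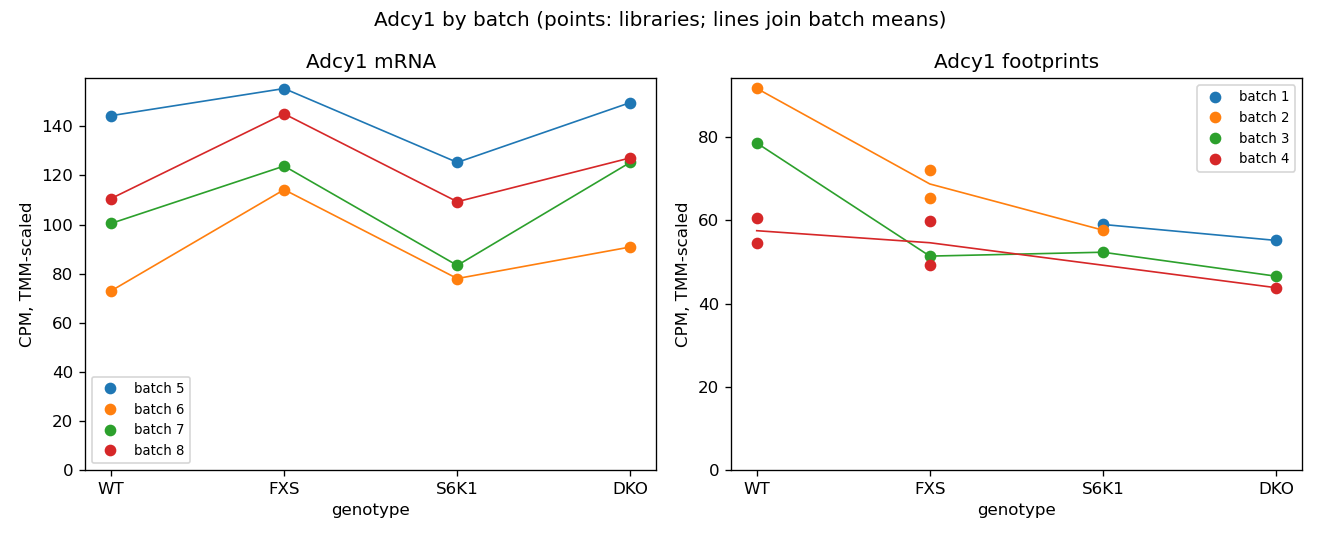
Adcy1 mRNA and footprint level (y axis, CPM scaled by TMM) by genotype (x axis), with 1 point per library, coloured by batch, and lines joining the batch means. In each mRNA batch the FXS point lies above WT, and in each footprint batch with WT the mutant means lie below it.

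Taking footprints relative to mRNA, Adcy1 had the lower TE in FXS and in DKO. The ratio of group means was 0.666 in WT, 0.569 in S6K1, 0.443 in FXS and 0.394 in DKO. Ranked among 13654 genes, this put Adcy1 at percentile 41.7 in WT, 34.4 in S6K1, 23.9 in FXS and 22.8 in DKO. The fitted log2 TE difference from WT was -0.67 ± 0.13 (SE) in FXS, a fold of 0.630 (edgeR adjusted p = 0.0497), and -0.80 ± 0.14 in DKO, a fold of 0.576 (adjusted p = 0.00808). For S6K1 it was -0.40 ± 0.14 (adjusted p = 0.537).

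By gene rank, the FXS difference in Adcy1 TE had the third smallest p of all genes and the DKO difference the ninth. The FXS call was lost when 1 of 13 of the 17 WT and FXS libraries was left out (all but mRNA library FXS 4, and footprint libraries WT 3, FXS 1 and FXS 4), with adjusted p up to 0.147. It was also lost with limma voom (0.0511), RLE factors (0.0503), no batch term (1), the WT and FXS libraries alone (0.146), without mRNA batch 5 (0.0819) and with scaling factors from each assay's own genes (0.0537), while DESeq2 gave 0.00171. The DKO call was lost without footprint library DKO 2 (0.0547) and without a batch term (0.13), and its adjusted p otherwise ran down to 0.000111. In the authors' deposited table neither difference passed, at -0.64 ± 0.26 (adjusted p = 0.512) for FXS and -0.76 ± 0.29 (adjusted p = 0.157) for DKO.

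The effects of the 2 deletions on Adcy1 TE were not shown to differ from additive. DKO was -0.13 ± 0.14 from FXS (adjusted p = 0.795), with an approximate 95% interval of -0.40 to 0.14, and -0.39 ± 0.14 from S6K1 (adjusted p = 0.239). The interaction on the log2 TE scale was 0.27 ± 0.19 (adjusted p = 1), with an approximate interval of -0.10 to 0.65. In mRNA it was -0.038 ± 0.11 and in footprints 0.23 ± 0.15 (adjusted p = 1 for each).

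Markers of excitatory neurons and of oligodendrocytes moved in part with Adcy1. The 6 markers of inhibitory neurons had a median log2 mRNA difference from WT of 0.0274 in FXS and -0.0126 in DKO. Of the 6, 1 was called lower in each, beside 0.0774% and 2.06% of all genes. Their median log2 TE differences were 0.0524 and 0.0801, with 0 called. Of the 4 excitatory markers, 2 were called higher in mRNA in DKO against WT, beside 3.17% of all genes. The summed mRNA level of the 4 was 2593.5 to 3787 CPM in WT and 2806 to 4359 in FXS. It was 2455 to 3708 CPM in S6K1 and 2808 to 4344 in DKO. Over the 12 mRNA libraries of batches 6 to 8, Adcy1 mRNA was correlated with that sum (Pearson r = 0.77, permutation p = 0.0041, adjusted p = 0.0369; Spearman rho = 0.755, permutation p = 0.00648, adjusted p = 0.0583), two-sided, adjusted over 18 relations. With the 2 libraries farthest from the median left out r was 0.556, with batch means removed 0.888 and with genotype means removed 0.601. The mRNA libraries of batch 5, left out here, went against this relation. Their excitatory sums were the lowest, 2455 to 2808 CPM, while their Adcy1 mRNA was 125 to 155 CPM, on average 1.35 times that of the other batches.

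In footprints the same sum was 3215 to 3803.5 CPM in WT, 2959.9 to 3919 in FXS, 2506 to 2988 in S6K1 and 2695 to 3788 in DKO. Its correlation with Adcy1 footprints over 15 libraries was r = 0.244 (rho = 0.307, permutation p = 0.381 and 0.265, adjusted 0.528 and 0.47), or 0.632 with batch means removed and -0.0618 with genotype means removed. The median log2 TE difference of the 4 excitatory markers from WT was -0.333 in FXS, -0.266 in S6K1 and -0.385 in DKO. In DKO 2 of the 4 were called lower in TE, beside 3% of all genes. In FXS and in S6K1, 0 of 4 were called. The 9 oligodendrocyte markers summed to 2825 to 4087 CPM of footprints in WT, 1807 to 2721 in FXS, 2650.5 to 2889.8 in S6K1 and 1908 to 2707 in DKO. Of these 9, 2 were called lower in footprints in FXS and 3 in DKO, beside 0.151% and 0.337% of all genes. In TE 6 were called lower in DKO, 1 in S6K1 and 0 in FXS, beside 3%, 0.022% and 0.0659% of all genes. These comparisons were with WT, and the median log2 TE difference of the 9 markers was -0.41 in FXS and -0.71 in DKO. Adcy1 footprints had r = 0.582 with that sum (rho = 0.614, permutation p = 0.0226 and 0.0173, adjusted 0.0815 and 0.0802), with 0.648 after removing batch means, 0.463 after removing genotype means and 0.409 without the 2 libraries farthest from the median. In mRNA the sign was the opposite: over the 12 libraries of batches 6 to 8, r between Adcy1 and the oligodendrocyte sum was -0.472 (rho = -0.357, permutation p = 0.12 and 0.255, adjusted 0.359 and 0.47), with -0.659 after removing batch means, -0.256 after removing genotype means and -0.775 without the 2 farthest libraries. The part of these cell types in the Adcy1 differences was not tested.

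With batch removed and genotype kept, genes whose mRNA varied most like Adcy1 over 16 libraries included Rnf157 (Pearson r of log2 CPM 0.955) and Ids (0.932), out of 9965 genes with a mean of at least 10 CPM. Ids encodes a lysosomal sulfatase. Neither of them was called in mRNA in FXS against WT, where the log2 fold changes were 0.19 and 0.27. In footprints over 15 libraries the most similar of 8982 genes were Tbc1d17 (0.936), Smg9 (0.930) and Sh2d3c (0.921). The libraries share batch and genotype, so these are descriptions of likeness.

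Adcy3 and Adcy8 are the other calcium-responsive isoforms, Adcy3 being the cyclase of olfactory neurons and of neuronal primary cilia, and Adcy8 a partner of Adcy1 in activity-driven cAMP production. Adcy3 had the next lowest p in TE after Adcy1 in DKO against WT. Its mRNA in batches 5 to 8 was 49.2, 71.9, 79.2 and 79.2 CPM in WT, 56.7, 87.0, 92.5 and 85.8 in FXS, 36.8, 80.8, 82.0 and 96.1 in S6K1, and 53.3, 97.2, 82.4 and 99.2 in DKO. Batch 5 was lowest in every genotype, and within all 4 batches FXS and DKO each exceeded WT. Its footprints ran from 41.5 to 62.1 CPM in WT, 39.8 to 61.3 in FXS and 46.9 to 58.5 in S6K1, while the 3 DKO libraries held 40.4, 38.7 and 40.6 CPM. The lowest FXS library lay among the DKO values. Adcy3 was highest in footprint batch 2, which held no DKO library, at a mean of 60.0 CPM beside 43.1 to 47.1 elsewhere.

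Against WT, the Adcy3 log2 differences in DKO were 0.23 ± 0.094 in mRNA (edgeR adjusted p = 0.141), -0.23 ± 0.099 in footprints (adjusted p = 0.265) and -0.46 ± 0.15 in TE (adjusted p = 0.0636). The TE difference was called in 3 of 23 alternatives: by DESeq2 (adjusted p = 0.0465), without mRNA batch 5 (0.0483) and without footprint library WT 3 (0.0422). In the rest it was not called, with adjusted p up to 0.287. In FXS they were 0.21 ± 0.094, -0.046 ± 0.080 and -0.26 ± 0.13 in mRNA, footprints and TE (adjusted p = 0.359, 0.883 and 0.391). In S6K1 all 3 were within 1 SE of 0, at 0.036 ± 0.095, 0.039 ± 0.10 and 0.0021 ± 0.15. DKO against S6K1 gave -0.47 ± 0.15 in TE (adjusted p = 0.223).

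The Adcy8 differences in FXS had the opposite sign to those of Adcy1 and Adcy3 in mRNA and in TE, and none passed the test. Its mRNA was lower in FXS than in WT within all 4 batches, by -0.32 to -0.037 on the log2 scale, and its fitted mRNA difference was -0.16 ± 0.077 (edgeR adjusted p = 0.397). Its footprints varied least of the 7 genes, 1.39-fold from the lowest to the highest of 15 libraries (20.4 to 28.4 CPM). They were 22.3, 25.7, 23.1 and 22 CPM in WT and 24.8, 26.7, 24.7, 25.7 and 23.8 CPM in FXS, which overlapped. The TE difference was 0.25 ± 0.11 in FXS (adjusted p = 0.335), 0.073 ± 0.13 in S6K1 and 0.046 ± 0.12 in DKO.

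**Figure D3:**
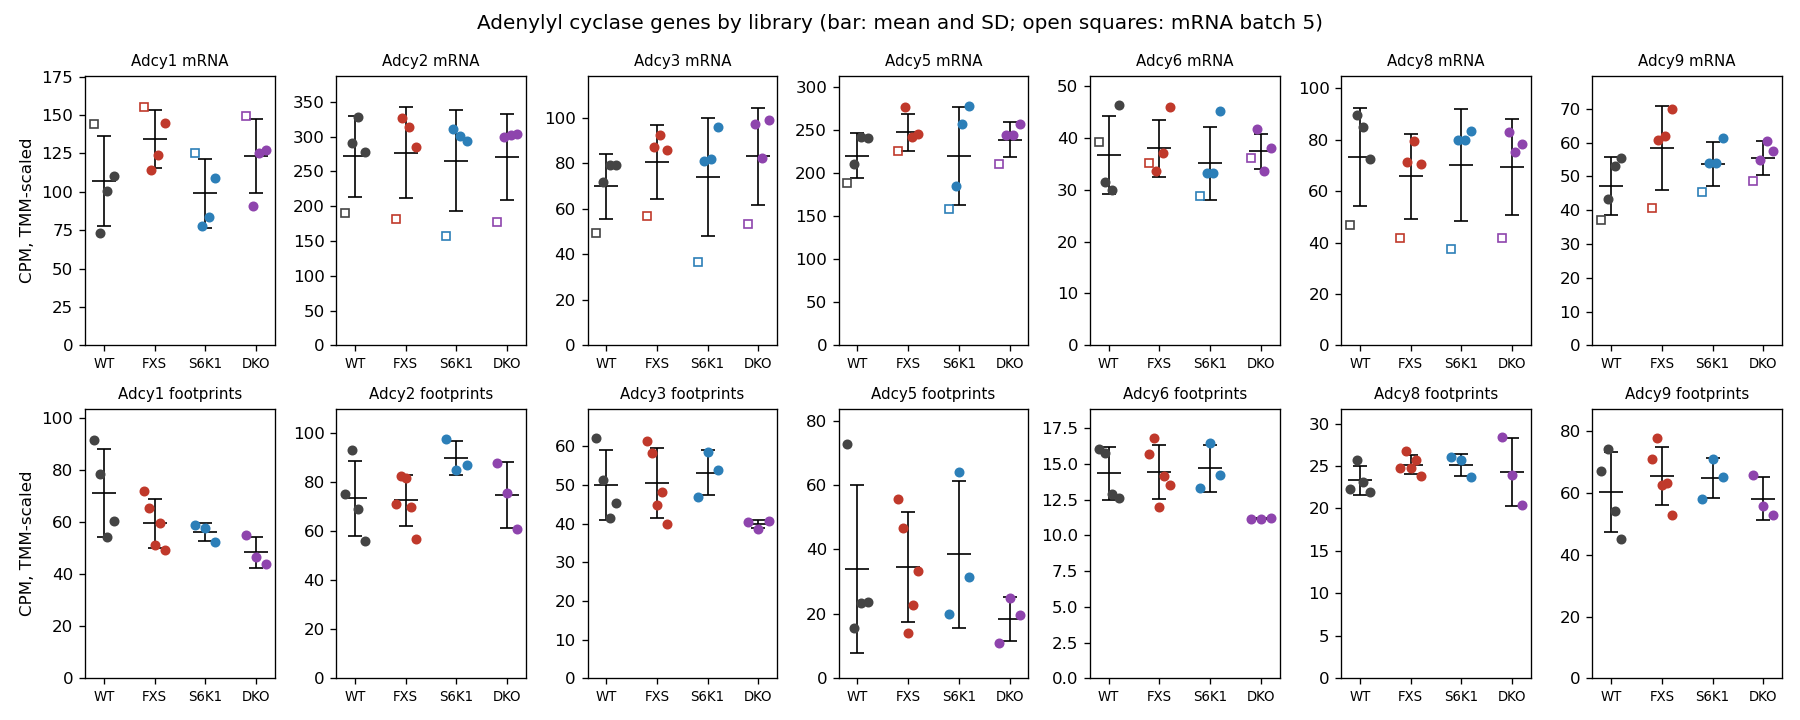
Level (y axis, CPM scaled by TMM) of each cyclase gene in mRNA (top row) and footprints (bottom row) by genotype, with 1 point per library and bars for the mean and SD. The open squares of mRNA batch 5 lie below the other libraries for Adcy2, Adcy3 and Adcy8, and Adcy5 footprints spread from 11.1 to 72.7 CPM.

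Adcy2 is a cyclase that G-protein beta-gamma subunits stimulate. Its mRNA had mean levels of 272 ± 58.3 CPM for WT, 277 ± 65.8 for FXS, 266 ± 72.5 for S6K1 and 271 ± 62.4 for DKO (SD, n = 4 each). The lowest library of each genotype was that of batch 5, at 158 to 190.3 CPM, against 277 to 328 CPM in the other 12 libraries. Its fitted mRNA differences from WT were 0.019 ± 0.066 in FXS, -0.054 ± 0.066 in S6K1 and -0.012 ± 0.066 in DKO, with edgeR adjusted p from 0.903 to 0.937. Adcy2 footprints averaged 73.2 ± 15.3 CPM for WT (n = 4), 72.4 ± 10.5 for FXS (n = 5), 89.8 ± 6.87 for S6K1 (n = 3) and 74.6 ± 13.3 for DKO (n = 3). The batch-adjusted footprint difference of S6K1 from WT was 0.064 ± 0.11 (adjusted p = 0.924), and its TE differences from WT lay between -0.11 and 0.12.

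Adcy4 and Adcy7, the relatives of Adcy2, and the soluble bicarbonate-sensitive cyclase Adcy10 were far less covered. Footprint levels were 0.029 to 0.318 CPM for Adcy4 (1 to 9 counts per library), 0.555 to 2.00 CPM for Adcy7 (19 to 43 counts) and 0.575 to 2.32 CPM for Adcy10 (10 to 58 counts). None of them was called in a contrast in which it was tested. Adcy7 footprints in DKO against WT had a log2 fold change of -0.69 ± 0.27 (edgeR adjusted p = 0.226).

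Adcy5, the calcium-inhibited cyclase that serves dopamine and adenosine receptors in striatal projection neurons, was the most variable member in footprints. Its footprint level spanned 6.56-fold, from 11.1 to 72.7 CPM, while the other 6 members spanned 1.39- to 2.09-fold. The 4 libraries of batch 2 were the highest: WT 1 held 72.7 CPM, S6K1 2 held 63.9, FXS 1 held 55.8 and FXS 2 held 46.6. All other libraries lay between 11.1 and 33.2 CPM, whatever the genotype. In mRNA the gene spanned only 1.75-fold, from 158 to 278 CPM.

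Adcy5 footprints followed the markers of striatum, the region under the cortex. The 11 striatal markers (Drd1, Drd2, Adora2a, Ppp1r1b, Penk, Gpr6, Rgs9, Six3, Isl1, Pde10a and Rxrg) summed to between 135 CPM of footprints in DKO 1, where Adcy5 was lowest, and 788 CPM in WT 1, where it was highest. By genotype the sums were 171 to 788 CPM in WT, 177 to 603 in FXS, 242 to 750.5 in S6K1 and 135 to 320.2 in DKO. Pearson r between Adcy5 and this sum over 15 libraries was 0.982 and Spearman rho 0.975, each with a two-sided permutation p of 1e-05, the smallest that 100000 permutations give (adjusted 0.00018 over 18 relations). Without the 2 libraries farthest from the median r was 0.973, with batch means removed 0.97 and with genotype means removed 0.98.

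Each of the 11 striatal markers alone had r from 0.775 to 0.981 with Adcy5 footprints, with a median of 0.924. Among 8982 genes, the 5 most like Adcy5 in footprints over the 15 libraries, with batch not removed in either measure, were Penk (r = 0.981), Rgs9 (0.964), Pde10a (0.960), Ptpn5 (0.952) and Gng7 (0.937), of which the last 2 are not on the list and Ptpn5 encodes a striatum-enriched phosphatase. In mRNA the relation was weaker and did not pass the test. Over the 12 libraries of batches 6 to 8, r was 0.401 and rho 0.189 (permutation p = 0.201 and 0.559, adjusted 0.444 and 0.671). Without the 2 libraries farthest from the median this r was 0.455, with batch means removed 0.415 and with genotype means removed 0.691. Each of the 11 markers alone had a positive r with Adcy5 mRNA, from 0.0887 to 0.694. The striatal sums in mRNA spanned only 476 to 838 CPM.

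**Figure D4:**
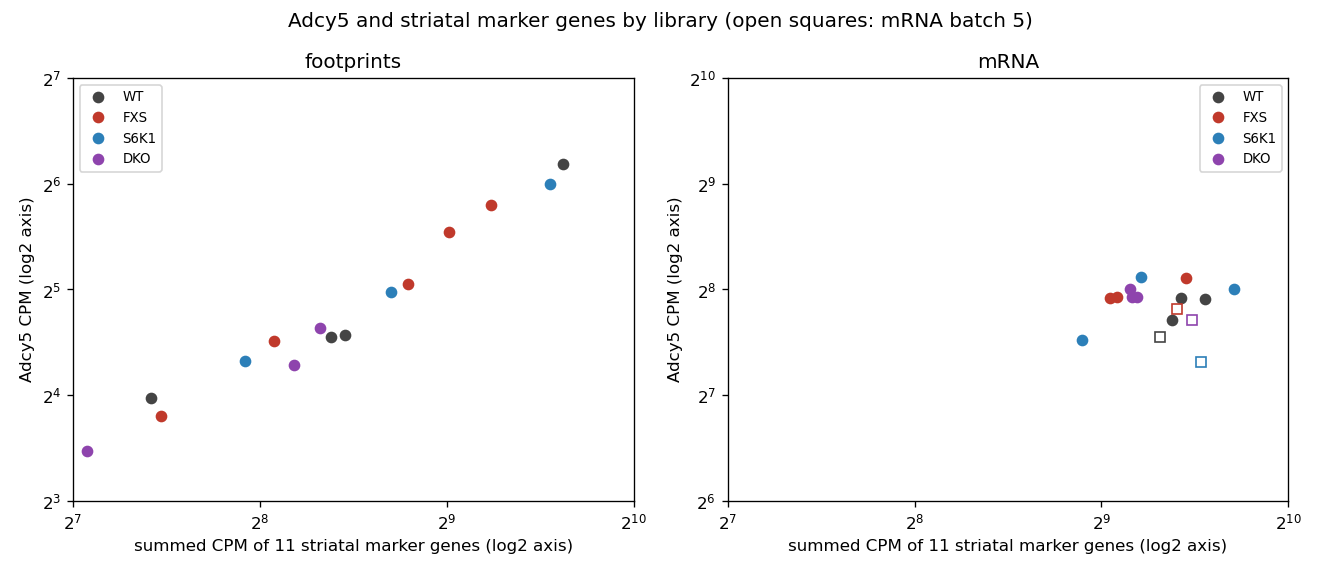
Adcy5 level (y axis, CPM) against the summed CPM of 11 striatal marker genes (x axis), both on log2 axes, with 1 point per library coloured by genotype. The footprint points form a line from 11.1 CPM of Adcy5 at a sum of 135 to 72.7 CPM at 788, while the mRNA points, open squares for batch 5, form no clear line.

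Among the other members, footprints of Adcy3 and Adcy6 had r = 0.63 and 0.624 with the striatal sum (rho = 0.561 and 0.611, permutation p for r = 0.0127 and 0.0141, adjusted 0.0636 each). These did not hold within batches, where r was 0.0731 and 0.0567. Adcy1 had r = 0.31 (rho = 0.261, permutation p = 0.264, adjusted 0.444), and -0.225 within batches.

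Genotype differences of Adcy5 footprints did not pass the test in any contrast. The raw footprint means were 33.9 ± 26.2 CPM for WT (SD, n = 4), 34.5 ± 17 for FXS (n = 5), 38.5 ± 22.8 for S6K1 (n = 3) and 18.5 ± 6.92 for DKO (n = 3), the last with no library from batch 2. With batch in the model the DKO difference from WT was -0.026 ± 0.28 (edgeR adjusted p = 0.971) and the FXS difference -0.069 ± 0.22 (adjusted p = 0.943). Single libraries turned both signs: the DKO difference ran from -0.40 without DKO 2 to 0.29 without DKO 3 and was also above 0 without WT 1 or DKO 1, and the FXS difference ran from -0.25 without FXS 5 to 0.20 without WT 1 and was also above 0 without FXS 3. In S6K1 it was 0.52 ± 0.28 (adjusted p = 0.651), beside a median of 0.73 over the 11 striatal markers in the same contrast, and it was 0.34 without WT 2, 0.80 without WT 1 and 0.88 without S6K1 2. The Adcy5 TE difference of DKO from S6K1 was -0.69 ± 0.30 (adjusted p = 0.304), beside -0.543 for the median of those markers, and it was -1.08 without footprint library DKO 2. The part of striatal tissue in these differences was not tested.

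Adcy6, the other calcium-inhibited isoform, had a low and even footprint level. In DKO the 3 libraries held 11.2, 11.1 and 11.2 CPM, and the other 12 ran from 12 to 16.8 CPM. How many of all genes separate in this way was not counted. Adcy6 was highest in batch 2, which held no DKO library, at a mean of 16.3 CPM beside 12.2 to 13.3 elsewhere. WT held 16.1, 15.8, 12.9 and 12.6 CPM, and the 2 WT libraries of batch 4 were nearest to DKO. The log2 footprint difference of Adcy6 in DKO was -0.29 ± 0.11 from WT (edgeR adjusted p = 0.234), -0.25 ± 0.11 from FXS (adjusted p = 0.762) and -0.30 ± 0.12 from S6K1 (adjusted p = 0.532). None passed the test, and the difference from WT was -0.16 (adjusted p = 0.71) without WT 2. The least covered library, WT 4, held 258 counts of Adcy6, which limited the precision. Its mRNA differences from WT lay between -0.070 and 0.051.

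Adcy9, a widely expressed isoform of low forskolin sensitivity, had higher mRNA in each mutant than in WT without passing the test. In batches 5 to 8 its mRNA was 37.2, 43.3, 53.2 and 55.4 CPM in WT and 40.7, 60.9, 62.1 and 69.9 in FXS. It was 45.3, 53.9, 54.1 and 61.5 CPM in S6K1 and 48.7, 54.9, 60.5 and 57.5 in DKO. Each mutant exceeded WT within all 4 batches, although the groups overlapped when batches were pooled. The mRNA differences from WT were 0.30 ± 0.081 in FXS (edgeR adjusted p = 0.119), 0.19 ± 0.081 in S6K1 (adjusted p = 0.65) and 0.24 ± 0.081 in DKO (adjusted p = 0.0802).

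The Adcy9 mRNA difference in FXS was called in 2 of 15 alternatives, by DESeq2 (adjusted p = 0.0473) and with the WT and FXS libraries alone (0.0225). The DKO difference was called in 1 of 15, without mRNA library DKO 4 (0.043). Over all alternatives the adjusted p ran up to 0.998 in FXS and 0.639 in DKO. In the authors' deposited table the FXS difference was 0.30 with an adjusted p of 0.031. Adcy9 footprints differed from WT by 0.081 ± 0.098 in FXS, -0.032 ± 0.12 in S6K1 and -0.054 ± 0.12 in DKO (adjusted p = 0.817, 0.97 and 0.838). Its TE differences were -0.22 ± 0.13, -0.23 ± 0.15 and -0.30 ± 0.15 (adjusted p = 0.457, 0.78 and 0.199). The mRNA interaction of the 2 deletions was -0.25 ± 0.11 (edgeR adjusted p = 1).

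The 7 genes differed widely in TE, a ratio in which gene length cancels. In WT the log2 ratio of footprint to mRNA CPM was 0.35 ± 0.21 (SE) for Adcy9, -0.48 ± 0.21 for Adcy3, -0.59 ± 0.27 for Adcy1, -1.36 ± 0.17 for Adcy6, -1.66 ± 0.22 for Adcy8, -1.89 ± 0.23 for Adcy2 and -2.70 ± 0.48 for Adcy5. Of the 7, 6 lay below the median of all genes, -0.35, and Adcy9 lay above it, at percentile 74.1. Adcy5 was at percentile 3.73 and Adcy2 at percentile 11. Between neighbours in this order, the gap was 2.84 times its SE from Adcy9 to Adcy3 and 2.44 times from Adcy1 to Adcy6. The other gaps were 0.305 times (Adcy3 to Adcy1), 1.07 (Adcy6 to Adcy8), 0.747 (Adcy8 to Adcy2) and 1.51 (Adcy2 to Adcy5). The SE of a gap took its genes as independent, though they were measured in the same libraries. It therefore does not decide which neighbours differ. In DKO the ratio of Adcy1 was -1.34 ± 0.18, with Adcy3 at -1.06 ± 0.21 and Adcy9 at 0.069 ± 0.12.

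**Figure D5:**
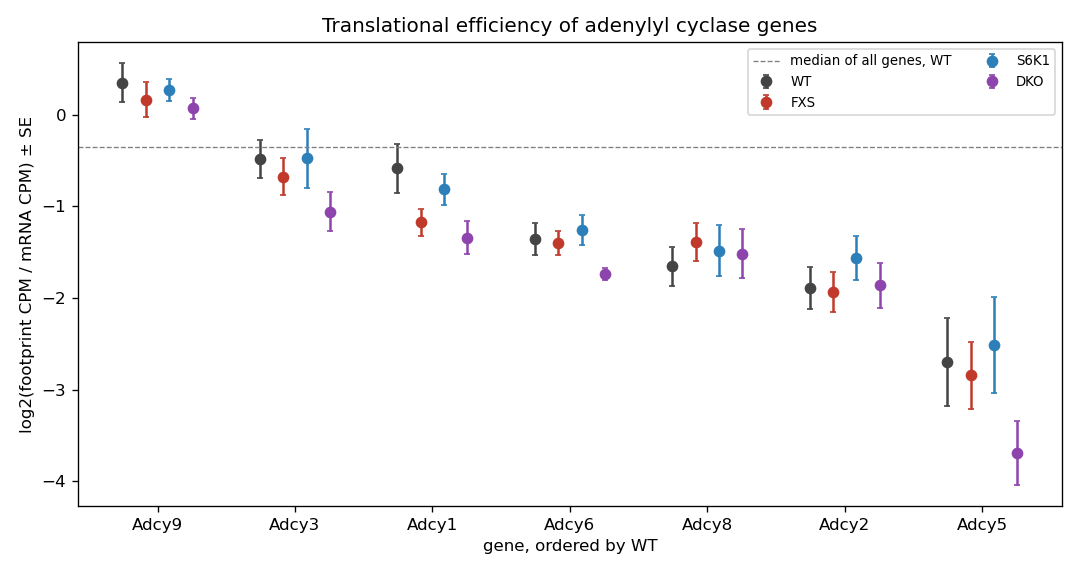
Log2 ratio of footprint to mRNA CPM (y axis, group means with SE bars) of each cyclase gene (x axis, ordered by WT) in the 4 genotypes, with the median of all genes in WT as a dashed line at -0.35. Adcy9 lies above the line at 0.35 in WT, Adcy5 lies lowest at -2.70, and the FXS and DKO points of Adcy1 lie below its WT point.

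Members varied together across libraries to different degrees. With batch removed, Adcy3 and Adcy5 had the highest correlation of any pair in mRNA (r = 0.723 over 16 libraries) and Adcy8 and Adcy9 the lowest (-0.690). In footprints Adcy3 and Adcy6 had the highest (0.771 over 15 libraries), and Adcy8 and Adcy9 were at 0.696. Adcy5 footprints had r from -0.411 to 0.183 with the other 6 members.

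Around the cyclases, 77 further genes of cAMP signalling were looked at: G proteins, receptors and ligands, protein kinase A subunits and inhibitors, phosphodiesterases, Epac, anchoring proteins, CREB-family factors, calmodulins and the other cyclases. Calls were made in DKO against WT and in none of the other 5 contrasts, where 1 to 12 of the genes had an unadjusted p under 0.05 in edgeR's test, beside 3.07% to 14.8% of all genes. In mRNA 6 of 76 tested (7.89%, beside 5.23% of all genes) were called. The adenosine A1 receptor Adora1 (0.29 ± 0.076, edgeR adjusted p = 0.0295), the GABA-B receptor subunit Gabbr2 (0.27 ± 0.073, adjusted p = 0.0357) and the inhibitory G-protein subunit Gnaz (0.31 ± 0.087, adjusted p = 0.0381) rose. The anchoring proteins Akap13 (-0.70 ± 0.10, adjusted p = 0.0019) and Akap8 (-0.23 ± 0.067, adjusted p = 0.0485) and the cAMP phosphodiesterase Pde8a (-0.47 ± 0.12, adjusted p = 0.03) fell.

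In footprints 1 of 75 pathway genes was called in DKO against WT (1.33%, beside 0.366%): Pde8a fell by 1.04 on the log2 scale (SE 0.17, edgeR adjusted p = 0.0182). In TE 3 of 75 were called (4%, beside 4.85%). Akap13 rose by 1.07 ± 0.25 (adjusted p = 0.0246), while Gabbr2 (-0.61 ± 0.15, adjusted p = 0.0252) and the CREB coactivator Crtc1 (-0.51 ± 0.13, adjusted p = 0.0332) fell. The median log2 fold change of the pathway genes in DKO against WT was 0.0109 in mRNA, 0.0181 in footprints and -0.0249 in TE. In FXS against WT 0 pathway genes were called in mRNA, footprints or TE, with 12 of 76, 8 of 75 and 5 of 75 at an unadjusted p under 0.05, beside 12.7%, 9.87% and 13.4% of all genes.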

How the data were processed

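Footprints and polyA mRNA of mouse cortex were counted in 31 libraries. Per the submitters' processing notes, the build was mm10 and the tools named were cutadapt 2.0, Bowtie2, TopHat2 and RSEM, with no role or order. The annotation, the strand setting and the read filters are not given in the sources used here. The deposited count tables hold raw whole-number counts per gene symbol. The authors' deposited comparison tables give, per the file headers, a mean of normalized counts (used here as a signal of unstated scale), a log2 fold change with its SE, a test statistic (a score) and p-values, raw and adjusted, and their model is not given in the sources used here. The deposited batch lists were not used, since the labels give genotype and batch, and 0 table columns were left unmatched to a library.

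Genes passing filterByExpr by genotype went into edgeR 4.0.16 (R 4.3.3), whose quasi-likelihood test with robust dispersions was run with TMM factors, batch and genotype in the model, all genotypes together, and Benjamini-Hochberg adjustment over all genes. TE was the footprint contrast minus the mRNA contrast in 1 model, with batch nested in assay and factors from the 13654 shared genes. The SE of a fold change comes from its F. DESeq2 1.42.0 and limma 3.58.1 were alternatives. The fits were run on simulated counts with known changes in FXS only. As those counts held no batch effect, that run does not bear on the batch term or on the Adcy1 calls.

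Batch numbers were kept as a replicate block because libraries of different genotype in the same batch deviated together: the median correlation of their deviations was 0.218 over 24 mRNA pairs (-0.123 over 72 pairs across batches) and 0.248 over 20 footprint pairs (-0.0978 over 63). No replicate repeated another (chi-square per degree of freedom at least 4.72). The members and the lists were chosen with earlier results of these data known. Genes named are the members, Adcy4, Adcy7 and Adcy10, called genes of the cAMP list (up to 6 per contrast), the 3 genes per assay most like Adcy1, and Fmr1 and Rps6kb1. A few genes of the marker lists and of the genes most like Adcy1 are not reported here and were left out of the marker sums. The correlations with summed markers (log2 CPM), their limit to mRNA batches 6 to 8, the genes most like Adcy5 and the alternative TE factors were chosen after seeing the data. Positions are from RefSeq's GRCm38.p6 annotation.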

Additional observations from a re-analysis of the deposited data

Results flagged for a closer look

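Of 42 groups of 4 or 5 libraries examined (7 genes), 4 held a library far from the others of its group by Dixon's 95% criterion, which chance alone meets in about 1 in 20 groups. In mRNA batch 5, Adcy2 was at 177 CPM in DKO replicate 1, where the other 3 DKO libraries held 300.2 to 303 CPM. Adcy2 was at 158 CPM in S6K1 replicate 1, against 293 to 312 CPM. Adcy8 was at 37.6 CPM in the same library, against 79.9 to 83.3 CPM. All 3 are libraries of the batch whose mRNA lay apart for these genes in every genotype. In footprints, Adcy5 was at 72.7 CPM in WT replicate 1 of batch 2, against 15.7 to 23.8 CPM in the other 3 WT libraries, and this library also had the highest striatal marker sum, 788 CPM.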

How the results depend on the processing

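No fitted difference of a member reversed its sign past the threshold, but the number of members called, 0 or 1 per contrast, moved with the processing. In mRNA FXS against WT (0 as reported) it was 2 with DESeq2 and with only the genotypes compared, and 1 with RLE factors, with no filter on low counts and without the mRNA libraries of batch 5. In mRNA DKO against S6K1 (0) it was 1 with DESeq2 and with RLE factors, and 0 to 1 with a library left out, and in mRNA DKO against WT 0 to 1. In footprints S6K1 against WT (0) it was 1 with DESeq2. In footprints DKO against WT (1) it was 0 with limma voom, RLE factors, only the genotypes compared and any library left out (0 to 0). In TE FXS against WT (1) it was 0 with limma voom, RLE factors, only the genotypes compared, without mRNA batch 5 and with each assay's own factors, and 0 to 1 with a library left out. In TE DKO against WT (1) it was 2 with DESeq2 and without mRNA batch 5, and 0 to 2 with a library left out. Without the replicate block (no batch term) it was 0 in all 18 tests. The cause of these moves was not tested. The count of 3 DKO and 3 S6K1 footprint libraries limits precision: the SE of a footprint log2 fold change of a member in DKO against WT was 0.099 to 0.28.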
